A study of Mus musculus with 27 samples.

Results

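The antigen receptor of B cells and the coreceptors that set its threshold were followed through 9 genes: Cd79a and Cd79b, the signalling chains; Cd22 and Cd72, inhibitory coreceptors; Ms4a1, which encodes CD20; the kinase genes Lyn, Syk and Btk; and Blnk, the adaptor. They were chosen by name, as 9 of 35604 genes in the deposited table. All 9 passed a filter of at least 1 TPM in at least 3 libraries, as did 12147 genes in all, where TPM is a level already scaled for transcript length and library total. The study measured polyadenylated RNA of primary B cells, taken from spleens of wild-type mice, in 27 libraries that form 9 groups of 3; strain and age are not in the labels used here. A naive group at 0 h had no treatment, and the other 8 groups all received anti-CD40 (clone HM40-3, 1 µg/mL), an antibody that stands in for the CD40 ligand of helper T cells. At 6 h and at 24 h this antibody was given alone, with IL-4 at 12.5 ng/mL, with IL-21 at 50 ng/mL, or with both cytokines. IL-4 and IL-21 are products of helper T cells, and none of the listed treatments is directed at the antigen receptor itself. The series' stated question was what IL-21 does within the B cell, and the comparisons here ask it of the receptor genes. Whether the replicates are separate mice or cultures is not in the labels, so the p values reflect only how far these samples spread, and that spread may be technical.

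As background, membrane immunoglobulin binds antigen but has almost no cytoplasmic tail, and signals through the Ig-alpha and Ig-beta chains encoded by Cd79a and Cd79b. LYN phosphorylates tyrosine motifs in those tails, SYK docks on them and phosphorylates the adaptor BLNK, and BLNK brings BTK to phospholipase C gamma, which opens the calcium response. LYN also phosphorylates inhibitory motifs in CD22 and CD72, which recruit the phosphatase SHP-1 and restrain the same signal, so that one kinase serves both arms.

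The genes lie on 6 chromosomes of GRCm38. The signalling chains are Cd79a (ENSMUSG00000003379, chr7:24897381-24902197, plus strand) and Cd79b (ENSMUSG00000040592, chr11:106311341-106314762, minus strand). The coreceptor genes are Cd22 (ENSMUSG00000030577, chr7:30865402-30880342, minus strand), Cd72 (ENSMUSG00000028459, chr4:43446462-43454628, minus strand) and Ms4a1 (ENSMUSG00000024673, chr19:11249675-11266241, minus strand). The kinase genes are Lyn (ENSMUSG00000042228, chr4:3678115-3813122, plus strand), Syk (ENSMUSG00000021457, chr13:52583173-52648792, plus strand) and Btk (ENSMUSG00000031264, chrX:134542336-134583570, minus strand), and the adaptor gene is Blnk (ENSMUSG00000061132, chr19:40928927-40994535, minus strand). All 9 are protein coding. The 3' part of Cd72 overlaps Tesk1 on the opposite strand, which was listed at 4.62 to 29.3 TPM (median 15.4). Whether the quantification used strand is not given in the sources used here, so Cd72 carries that uncertainty at its lowest levels.

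RefSeq's GRCm38.p6 promoter table, which spans 250 bases before each start, held 6 of the 9 genes in 7 windows, those of Cd79a, Cd22, Cd72, Blnk, Btk and Syk. Cd79b, Ms4a1 and Lyn had no window. For 3 genes the part of the window upstream of the start and outside annotated exons is printed 5′ to 3′ on the gene's strand. RefSeq's Cd22 start lies inside the GENCODE gene, so that stretch is intronic to its longer transcripts. Cd22 is shown because its level ranged most over the groups, and Cd79a and Cd72 because their levels moved most alike. Capitals mark a match to a motif of EBF1, a factor of B cell identity, spelled TCCC and GGGA with any 2 bases between them.
Cd22, chr7:30879029-30879176, minus strand: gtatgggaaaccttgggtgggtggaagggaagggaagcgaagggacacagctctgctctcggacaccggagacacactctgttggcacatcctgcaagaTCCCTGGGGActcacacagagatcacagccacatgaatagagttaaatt
Cd79a, chr7:24897247-24897380, plus strand: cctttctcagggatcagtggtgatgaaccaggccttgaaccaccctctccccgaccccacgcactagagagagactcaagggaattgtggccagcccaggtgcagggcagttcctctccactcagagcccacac
Cd72, chr4:43454629-43454876, minus strand: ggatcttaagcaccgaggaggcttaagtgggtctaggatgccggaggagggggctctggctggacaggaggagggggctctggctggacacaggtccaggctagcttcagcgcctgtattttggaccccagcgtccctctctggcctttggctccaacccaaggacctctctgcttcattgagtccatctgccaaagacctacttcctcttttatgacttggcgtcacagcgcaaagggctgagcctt
The EBF1 letters were found in 1 of the 7 windows, 49 to 40 bases before the Cd22 start, against 0.779% of 32851 promoter windows. Both strands of each window were searched. The letters of STAT sites, TTC and GAA with any 3 or any 4 bases between them, were in 0 of the 7 windows, and in 7.02% (3 bases) and 5.85% (4 bases) of all windows. The octamer ATGCAAAT was in 1 of the 7 windows, on the reverse strand 130 to 123 bases before the Blnk start, and in 1.6% of all windows. A match is only a run of letters, and its absence says only that these windows do not hold it. Sites that depart from these exact spellings were not searched, so a stretch without capitals may still hold a site of EBF1.

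The labelled cell type was checked against 9 B cell markers, all of which were above 0 TPM in all 27 libraries. Of these markers, Cd79a, Cd79b and Ms4a1 are themselves among the 9 genes followed here. The B cell markers summed to 1493 to 9942 TPM, and to 1493 to 2545 TPM with IL-21 at 6 h. The 5 plasma cell markers summed to 139 to 606 TPM, of which Mzb1 alone had 111 to 483 TPM. The 9 T cell markers summed to 9.21 to 32.1 TPM, of which Lck alone had 5.24 to 30.6 TPM, Il7r and Trac reached 6.34 and 5.23 TPM, and Cd3e and Cd4 reached 1.51 and 0.627 TPM. The 7 neutrophil markers summed to 0 to 0.393 TPM. Summed macrophage and monocyte markers reached 84.4 to 118 TPM in the naive libraries, with 5 of the 9 at a mean of at least 1 TPM and C1qa and Lyz2 at 37.0 and 26.8 TPM. They reached 2.92 to 43.1 TPM in the cultured groups. Erythroid and platelet markers summed to 1012 to 1797 TPM in the naive libraries and 11.3 to 245 TPM in the cultured ones. Shares of mitochondrially encoded transcripts differed within groups. Replicate 1 had 5.5% against 12.7% and 13.5% in the naive group. In the 24 h group with IL-4 it had 7.89% against 11.6% and 11.0%. Replicate 3 was low at 6 h with IL-4 (6.91% against 10.2% and 10.6%) and with IL-21 (7.27% against 10.9% and 10.2%). All 24 h libraries with IL-21 had 6.56% to 8.14%, and those with both cytokines 6.97% to 8.04%. Below, the 2 libraries of low mitochondrial share are only those 2 numbered 1, so the name does not set them apart from all others. Correlations of log2(TPM + 1) were 0.927 to 0.982 between libraries of a group and 0.823 to 0.972 between groups. The listed values summed to 766384 to 825365 TPM per library, and because TPM keeps no read depth, the depth behind each value is unknown.

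Levels below are TPM in replicates 1, 2 and 3, in that order. Differences are in log2(TPM + 1) ± standard error with 3 libraries per group, and adjusted p values are from limma with Benjamini-Hochberg adjustment over all 12147 genes. A gene is said to rise or fall where that p was below 0.05. In such bulk RNA, fewer cells of a type and less RNA per cell cannot be told apart.

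In naive cells the receptor genes covered a wide range of levels. Cd79a (1144 ± 470.3 TPM, mean ± SD, n = 3), Cd79b (1014 ± 46.9 TPM) and Ms4a1 (786 ± 139 TPM) ranked 111, 117 and 135 of 35604 genes. Cd72, Cd22, Blnk and Syk had means of 183, 149, 138 and 116 TPM, and Lyn one of 58.5 TPM. Btk was listed at only 0.511, 1 and 0.494 TPM in the naive libraries and ranked 10795. BTK protein is a known kinase of naive B cells, and what lies behind its low listed RNA level was not tested.

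**Figure D1:**
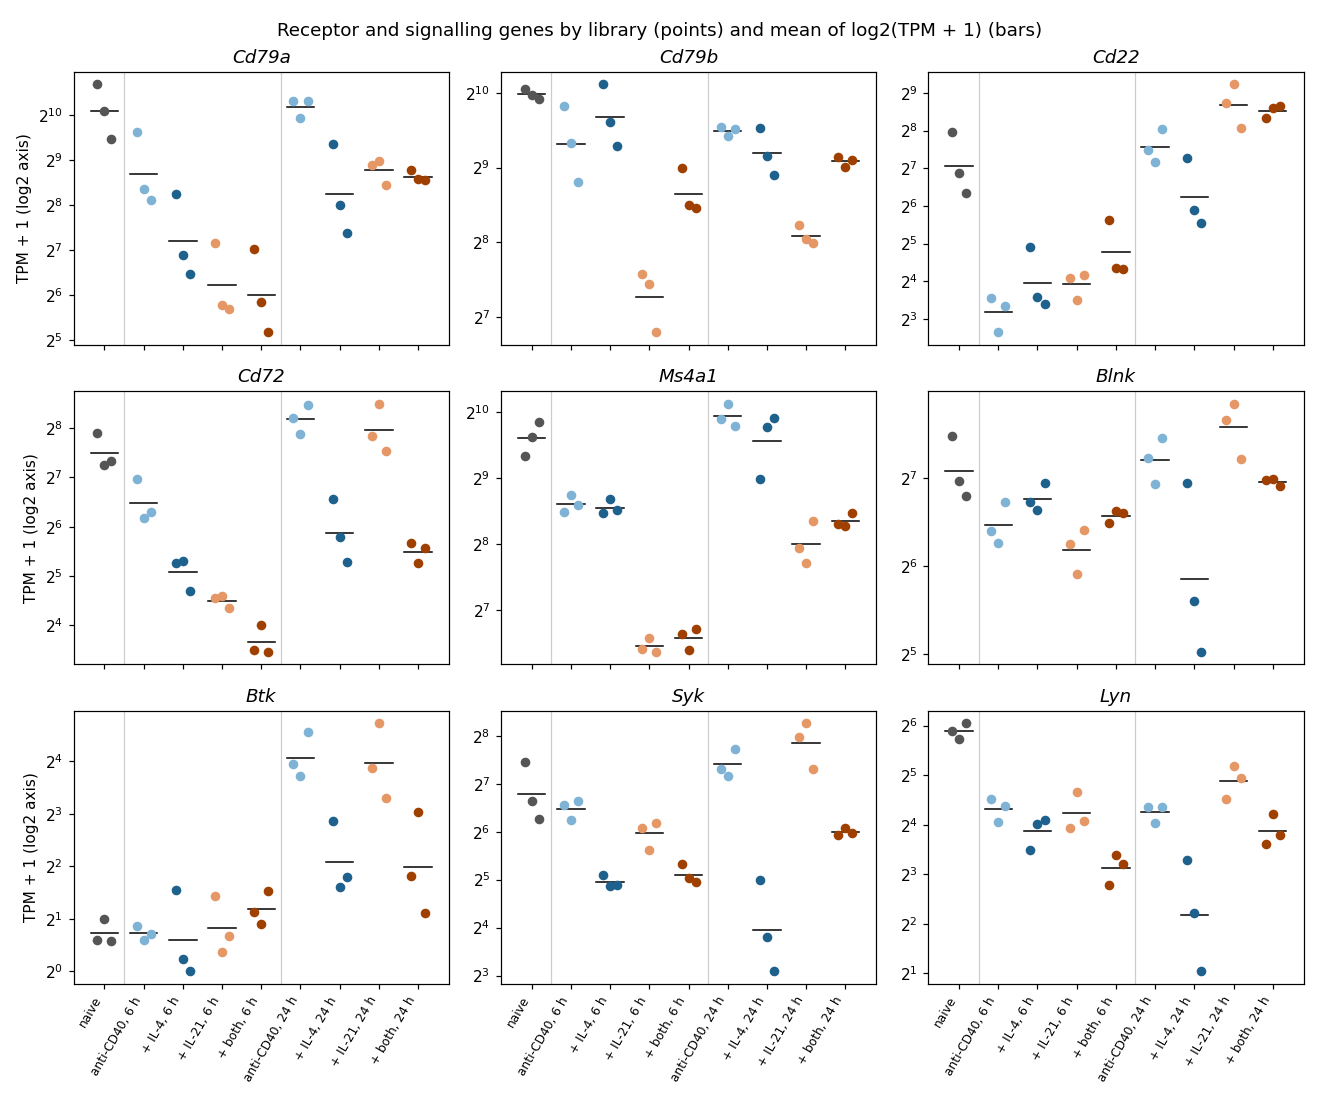
Levels of the 9 genes in every library, as TPM + 1 on a log2 axis, with 1 panel per gene, the 9 groups along the horizontal axis and a bar at the mean of log2(TPM + 1). Cd22 is lowest in the 4 groups at 6 h, Ms4a1 is near 90 TPM in both 6 h groups with IL-21, and Syk and Lyn have their lowest means in the 24 h group with IL-4.

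The first comparison set anti-CD40 alone against naive cells. At 6 h, 5 of the 9 genes fell and 0 rose, in limma, where 29.9% of all tested genes were called, 16.6% higher and 13.3% lower. At an unadjusted p below 0.05 the counts were 6 lower and 0 higher, and 6 genes had groups that did not overlap, against 41.5% of all genes. Over the 9 genes the median difference was -0.99, against 0.06 over all tested genes. By 24 h only 2 were called, Btk higher and Lyn lower, against 26.8% of all genes, 18.9% higher and 7.85% lower, and 3 had groups that did not overlap, against 38.4%. The comparison joins culture and stimulation, which cannot be told apart.

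The fall at 6 h was largest for Cd22. It was listed at 249, 117 and 79.5 TPM in naive cells and at 10.7, 5.23 and 9.09 TPM after 6 h, so every library with anti-CD40 was below every naive one. The difference was -3.89 ± 0.48, adjusted p = 1.27e-06, a 14.8-fold fall. At 24 h the level was 178, 143 and 260.5 TPM, which overlapped the naive range.

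Cd72, the other inhibitory coreceptor, fell as well at 6 h. Naive libraries had 239, 151 and 159.6 TPM and those at 6 h had 124, 71.5 and 77.9 TPM, without overlap (-1.01 ± 0.29, adjusted p = 0.0113). At 24 h it stood at 292, 235 and 351 TPM, with 1 library inside the naive range, and was not called (0.68 ± 0.29, adjusted p = 0.0904). The 6 h call was lost without naive replicate 1 (adjusted p = 0.0644) or without replicate 2 of the 6 h group (adjusted p = 0.0616).

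Ms4a1, the CD20 gene, went from 644, 791 and 923 TPM to 359.8, 427 and 387 TPM at 6 h, again without overlap (-0.99 ± 0.19, adjusted p = 0.000381), and was at 953, 1118 and 886 TPM at 24 h. The signalling chains were less even between replicates. Cd79b fell from 1064, 1007 and 971 TPM to 905, 641 and 447 TPM (-0.67 ± 0.24, adjusted p = 0.0362) and was at 746, 686 and 729.6 TPM at 24 h. That call at 6 h was lost when any of the 3 naive libraries or replicate 2 or 3 of the 6 h group was left out, and without replicate 3 the difference was -0.41. It was lost too without a filter (adjusted p = 0.0747) and with only the groups compared (0.075). Cd79a was at 1641, 1086 and 706 TPM in naive cells and 785, 325 and 276 TPM at 6 h, ranges that overlapped, and was not called (-1.38 ± 0.53, adjusted p = 0.0546, 95% interval -2.49 to -0.28). Leaving out any 1 of 8 libraries brought Cd79a past the threshold, with the lowest adjusted p, 0.0191, without replicate 1 of the 6 h group. In both of these groups replicate 1 was the highest for Cd79a, and at 24 h the level was 1264, 979 and 1271 TPM.

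Lyn was the only one of the 9 that was called lower than naive at both times. It was listed at 58.1, 52.1 and 65.2 TPM in naive cells, 21.9, 15.7 and 19.9 TPM at 6 h and 19.6, 15.3 and 19.5 TPM at 24 h, so every library with anti-CD40 was below every naive one. The differences were -1.57 ± 0.36, adjusted p = 0.00176 at 6 h and -1.64 ± 0.36, adjusted p = 0.00173 at 24 h. Lyn is also expressed by macrophages, whose 9 markers summed to 84.4 to 118 TPM in naive libraries against 21.7 to 33.7 TPM and 32 to 43.1 TPM with anti-CD40, with 0 of the 9 at 0 in all naive libraries. The part of those cells in the Lyn difference was not tested.

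Syk and Blnk were not called against naive cells. Syk was at 174, 98.9 and 76.1 TPM in naive cells, 93.5, 74.9 and 98.7 TPM at 6 h and 158, 143 and 211 TPM at 24 h, with differences of -0.30 ± 0.34 and 0.62 ± 0.34. Blnk was at 179, 124 and 111 TPM, 83.8, 76 and 105 TPM and 149, 122 and 176 TPM. Its naive and 6 h libraries did not overlap, but the difference of -0.62 ± 0.31 missed the threshold (adjusted p = 0.142, 95% interval -1.25 to 0.02). Without replicate 1 of the 24 h IL-4 group, which is not in this comparison but enters the joint fit, its adjusted p at 6 h was 0.0184.

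Btk moved the other way and late. It was listed at 0.821, 0.511 and 0.644 TPM at 6 h, overlapping naive cells, and at 14.3, 12.1 and 22.4 TPM at 24 h. Every 24 h library was above every naive one (3.34 ± 0.46, adjusted p = 1.19e-05 against naive). On this scale the change of a gene that starts near 0 is understated, and with a pseudocount of 0.1 in place of 1 the difference was 4.43.

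Replicate 1 of the naive group had the highest naive level of Cd79a, Cd79b, Cd22, Cd72, Blnk and Syk. Without it and without replicate 1 of the 24 h IL-4 group, 4 genes were called at 6 h, Cd79b being lost. At 24 h, 4 genes were then called: Cd72 (0.89, adjusted p = 0.0147) and Syk (0.95, adjusted p = 0.00574) came in as higher beside Btk and Lyn. For that fit the shares of all genes called are not given here.

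Between 6 h and 24 h of anti-CD40 alone, 5 genes rose and 0 fell in limma, against 24.3% of all genes called, 16.1% higher and 8.17% lower. There were 7 higher and 0 lower at an unadjusted p below 0.05, and 7 genes had groups that did not overlap, against 44.8% of all genes. The median difference of the 9 was 1.33, against 0.15 over all tested genes. The same 6 h libraries serve in the comparison with naive cells, so the falls there and the rises here are not independent. Cd22 rose by 4.39 ± 0.48, adjusted p = 8.31e-07, Btk by 3.34 ± 0.46, adjusted p = 1.83e-05, Cd72 by 1.70 ± 0.29, adjusted p = 0.000224 and Ms4a1 by 1.33 ± 0.19, adjusted p = 3.51e-05. The rise of Cd79a (1.49 ± 0.53, adjusted p = 0.0452) was close to the threshold, and leaving out any 1 of 14 of the 27 libraries ended the call. Among them were replicates 2 and 3 of the 6 h group (adjusted p = 0.148 and 0.173) and each of the 24 h group (0.0638 to 0.119), while the other 9, outside the groups compared, gave 0.0501 to 0.0526. It was also lost without a filter on low values (adjusted p = 0.11). The difference of Cd79a had a range of 1.20 to 1.95 over all alternatives. Syk (0.92 ± 0.34, adjusted p = 0.055) and Blnk (0.74 ± 0.31, adjusted p = 0.0816) were not called, but Syk passed the threshold in 11 and Blnk in 6 of the 36 alternatives. With only the groups compared in the fit their adjusted p values were 0.00559 and 0.0134, and after median-of-ratios rescaling 0.00924 and 0.0175. Lyn (-0.07 ± 0.36, 95% interval -0.82 to 0.68) and Cd79b (0.17 ± 0.24, 95% interval -0.32 to 0.66) were not called.

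Adding IL-21 to anti-CD40 lowered the RNA of both signalling chain genes, of Ms4a1 and of Cd72 within 6 h. Of the 9 genes 4 fell and 0 rose in limma, where 12.1% of all tested genes were called, 7.43% higher and 4.68% lower, and an unadjusted p below 0.05 gave the same 4 lower and 0 higher. The median difference of the 9 was -0.52, against 0.10 over all genes.

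Cd79a had 142, 54.1 and 50.9 TPM with IL-21, against the 276 to 785 TPM given above for anti-CD40 alone. The groups did not overlap, and the fall was 5.58-fold (-2.48 ± 0.53, adjusted p = 0.00284). Cd79b had 189.7, 172 and 109.9 TPM with IL-21, also below every library without it, and fell 4.14-fold (-2.05 ± 0.24, adjusted p = 2.36e-06).

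Ms4a1 had 84.8, 95.2 and 81.9 TPM with IL-21 at 6 h, and the replicates of both groups lay close together. Its fall was 4.44-fold (-2.15 ± 0.19, adjusted p = 6.4e-08). Cd72 had 22.6, 23.1 and 19.5 TPM with IL-21, with no overlap, and fell 3.94-fold (-1.98 ± 0.29, adjusted p = 7.01e-05).

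The other inhibitory coreceptor and the intracellular genes were not called at 6 h. Cd22 was low in both groups, at 16, 10.3 and 16.9 TPM with IL-21 (0.74 ± 0.48, 95% interval -0.26 to 1.74). Lyn was at 14.4, 24.4 and 16 TPM (-0.09 ± 0.36), Blnk at 75.2, 59.1 and 84.1 TPM (-0.28 ± 0.31) and Btk at 1.71, 0.286 and 0.59 TPM (0.10 ± 0.46). Syk was at 66.6, 48.4 and 72 TPM, below all libraries without IL-21, yet its difference of -0.52 ± 0.34 was not called (adjusted p = 0.4). After median-of-ratios rescaling Syk was called (-0.64, adjusted p = 0.0441). In all, 5 of the 9 genes had groups that did not overlap, against 33.5% of all tested genes.

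At 24 h the IL-21 difference remained past the threshold for 2 of those 4 genes, Ms4a1 and Cd79b, which were lower, and 0 of the 9 rose in limma. Among all tested genes the share called was 24.2%, with 17.8% higher and 6.33% lower. At an unadjusted p below 0.05 there were 3 lower and 1 higher. The median difference of the 9 was -0.10, against 0.23 over all genes.

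Ms4a1 had 246, 210.4 and 327 TPM with IL-21 at 24 h, all below the 886 to 1118 TPM of anti-CD40 alone (-1.93 ± 0.19, adjusted p = 1.6e-07). Cd79b had 301, 262 and 253 TPM with IL-21, against 686 to 746 TPM without it (-1.41 ± 0.24, adjusted p = 0.000132). Neither pair of groups overlapped, as for 5 of the 9 genes in this comparison, against 38.3% of all genes.

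Cd79a had 475, 504 and 347 TPM with IL-21, below every library of anti-CD40 alone, and its difference of -1.41 ± 0.53 just missed the threshold (adjusted p = 0.0583, 95% interval -2.52 to -0.30). Cd79a was called in 11 of the 36 alternatives. Among them were median-of-ratios rescaling (-1.69, adjusted p = 0.0113) and the fit with only the groups compared (adjusted p = 0.000957). Removal of mitochondrial, ribosomal protein and pseudogene transcripts gave 0.017. It was also called when any of 6 libraries outside these groups was left out (adjusted p from 0.0331 to 0.0482). Cd72, so low with IL-21 at 6 h, was at 228, 359 and 185 TPM at 24 h and overlapped anti-CD40 alone (-0.22 ± 0.29, 95% interval -0.83 to 0.39). Cd22 had 423, 600.0 and 266 TPM, the highest group mean of that gene, with a difference of 1.11 ± 0.48 that was not called (adjusted p = 0.0975). Cd22 was called with only the groups compared (adjusted p = 0.0282) and without both libraries of low mitochondrial share (0.036).

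The intracellular genes had their highest or next-highest group means here, without a call. Syk was at 249, 306 and 157 TPM (0.44 ± 0.34, 95% interval -0.27 to 1.15) and Blnk at 203, 230.1 and 149 TPM (0.37 ± 0.31, 95% interval -0.27 to 1.00). Lyn, highest in naive cells, was at 22, 35.4 and 29.6 TPM, above every library of anti-CD40 alone (0.63 ± 0.36, adjusted p = 0.215). Btk was at 13.5, 25.4 and 8.89 TPM (-0.10 ± 0.46). In replicate 3 of this group Cd79a, Cd79b, Cd22, Cd72, Blnk, Syk and Btk were each the lowest of the 3.

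**Figure D2:**
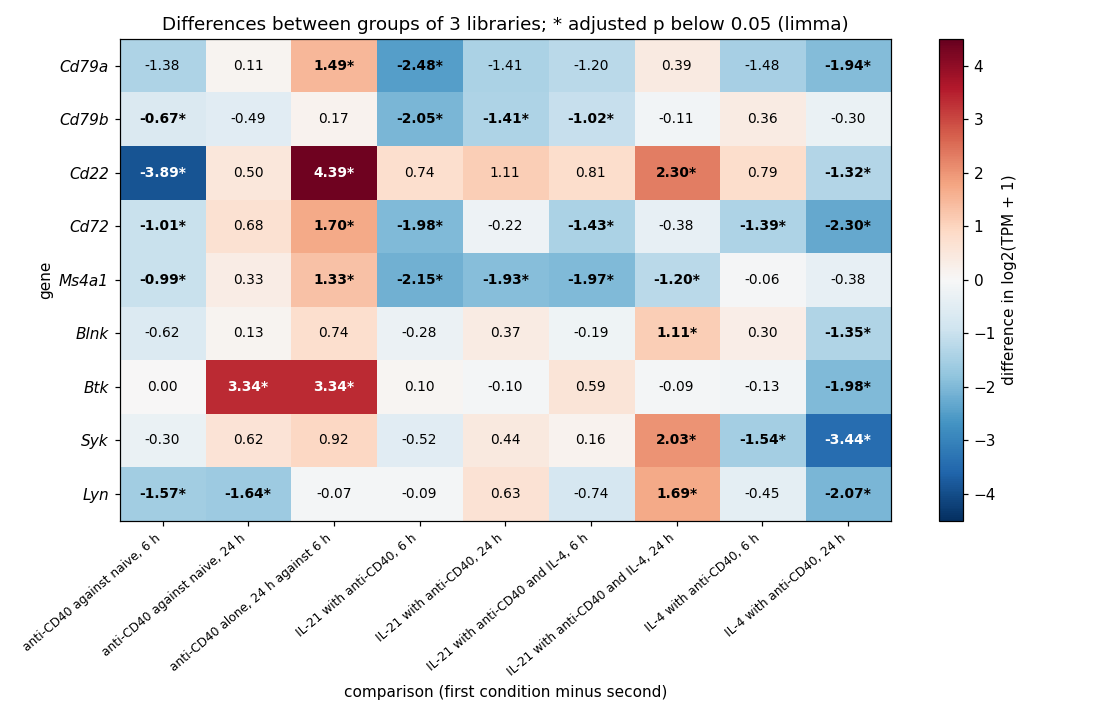
Difference in log2(TPM + 1) of each gene (rows) in 9 comparisons (columns), coloured from lower (blue) to higher (red), with an asterisk where the limma adjusted p was below 0.05. Ms4a1 is lower with IL-21 in all 4 IL-21 columns, and the column of IL-4 at 24 h holds 7 lower calls.

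IL-4 added to anti-CD40 gave few differences at 6 h and many at 24 h. At 6 h, Syk and Cd72 fell, 2 of the 9 genes, and 0 rose in limma, against 4.04% of all tested genes called, 1.65% higher and 2.4% lower. At an unadjusted p below 0.05 there were 3 lower and 0 higher. At 24 h, 7 of the 9 fell and 0 rose, at an unadjusted p below 0.05 as well, against 31.4% of all genes called, 8.28% higher and 23.1% lower, and 5 had groups that did not overlap, against 32.9% of all genes. Their median difference at 24 h, over all 9, was -1.94, against -0.31 over all genes.

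At 6 h Syk had 33.2, 28.1 and 28.5 TPM with IL-4, against 74.9 to 98.7 TPM without it (-1.54 ± 0.34, adjusted p = 0.00757). Cd72 had 37.4, 38.5 and 25.1 TPM with IL-4, against 71.5 to 124 TPM (-1.39 ± 0.29, adjusted p = 0.00462). Neither pair of groups overlapped, and 25.1% of all genes did not. The Cd72 call was lost without replicate 1 of anti-CD40 alone (adjusted p = 0.0517).

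Cd79a had 303, 118 and 88.1 TPM with IL-4 at 6 h, overlapping anti-CD40 alone, with replicate 1 highest in both groups. Its difference of -1.48 ± 0.53 was not called (adjusted p = 0.169). With the replicate number as a block, since same-numbered libraries of this comparison deviated together, it was called (adjusted p = 0.00437), as it was without replicate 1 of the IL-4 group (-2.01, adjusted p = 0.0494).

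The remaining genes overlapped at 6 h. Cd79b was at 1109, 782 and 628 TPM with IL-4, Ms4a1 at 353, 409 and 366 TPM and Cd22 at 29, 10.9 and 9.57 TPM. Blnk was at 105, 98.8 and 122 TPM, Lyn at 10.2, 15.2 and 16.2 TPM and Btk at 1.94, 0.18 and 0 TPM. Their differences ran from -0.45 ± 0.36 for Lyn to 0.79 ± 0.48 for Cd22.

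At 24 h all 3 kinase genes fell with IL-4. Syk had 30.9, 12.9 and 7.51 TPM, against 143 to 211 TPM with anti-CD40 alone, and fell 10.9-fold (-3.44 ± 0.34, adjusted p = 1.46e-07). Lyn had 8.81, 3.65 and 1.06 TPM, all below the other group, and fell 4.18-fold (-2.07 ± 0.36, adjusted p = 0.000175). Btk had 6.22, 2.03 and 2.46 TPM (-1.98 ± 0.46, adjusted p = 0.00257).

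None of the 3 kinase genes had overlapping groups. The adaptor gene Blnk did overlap, at 123, 47.6 and 31.5 TPM, with replicate 1 inside the range of anti-CD40 alone and replicates 2 and 3 far below it (-1.35 ± 0.31, adjusted p = 0.00196). After median-of-ratios rescaling the Blnk difference was -0.89, with the call kept (adjusted p = 0.00055). With only the groups compared the call was lost (adjusted p = 0.071).

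Of the inhibitory coreceptors, Cd72 had 93.8, 54.2 and 37.9 TPM with IL-4 at 24 h, against 235 to 351 TPM without it (-2.30 ± 0.29, adjusted p = 4.59e-06). Cd22 had 154, 58.4 and 45.8 TPM, with replicate 1 inside the other group's range (-1.32 ± 0.48, adjusted p = 0.0397). Its call was lost without replicate 1 or 3 of anti-CD40 alone or replicate 2 or 3 of the IL-4 group (adjusted p = 0.0744, 0.167, 0.144 and 0.207), after median-of-ratios rescaling (-0.85, adjusted p = 0.0858), without a filter (0.0958) and with only the groups compared (0.0723).

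Of the signalling chains, Cd79a was called at 24 h with IL-4 and Cd79b was not. Cd79a had 649, 256 and 165 TPM and fell (-1.94 ± 0.53, adjusted p = 0.00821), a call lost without replicate 3 of the IL-4 group (adjusted p = 0.0679). Cd79b had 741, 571 and 476 TPM and was not called (-0.30 ± 0.24, 95% interval -0.79 to 0.19). Ms4a1 had 506, 873 and 962 TPM and was not called either (-0.38 ± 0.19, 95% interval -0.79 to 0.02). The differences of Cd79a and Cd79b were not tested against each other.

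In this IL-4 group, replicate 1 had the highest level of 8 of the 9 genes, Ms4a1 being the exception. It also had the lower mitochondrial share given above, and ribosomal protein transcripts at 23.0% against 29.1% and 29.2%. Without it and naive replicate 1, 7 genes were still called lower with IL-4 at 24 h. Lyn and Syk are also expressed by macrophages and monocytes, whose 9 markers summed to 5.6 to 10.5 TPM with IL-4 and 32 to 43.1 TPM without it, of which Mpeg1 alone had 5.85 and 34.7 TPM. Csf1r was at or below 0.673 TPM in every library, and the part of such cells in these differences was not tested.

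Given with IL-4 and anti-CD40 together, IL-21 lowered 3 receptor genes at 6 h and raised Cd22 and 3 intracellular genes at 24 h. At 6 h, Ms4a1, Cd72 and Cd79b fell and 0 of the 9 rose in limma, against 2.54% of all tested genes called, 1.25% higher and 1.28% lower. At an unadjusted p below 0.05 there were 4 lower and 0 higher. At 24 h, 4 genes rose and 1 fell, against 24.2% of all genes called, 21.8% higher and 2.39% lower, and 4 had groups that did not overlap, against 29.2% of all genes.

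Ms4a1 had 99, 83.4 and 104 TPM with both cytokines at 6 h, far below the 353 to 409 TPM with IL-4 alone (-1.97 ± 0.19, adjusted p = 6.45e-07). Cd72 had 10.3, 15.1 and 10 TPM, its lowest group, against 25.1 to 38.5 TPM (-1.43 ± 0.29, adjusted p = 0.00516). Cd79b had 509, 361 and 352 TPM, against 628 to 1109 TPM (-1.02 ± 0.24, adjusted p = 0.0153).

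All 3 of these pairs of groups were free of overlap, as were 5 of the 9 genes against 23.4% of all genes. The Cd79b call was lost without replicate 1 of the IL-4 group (adjusted p = 0.14) or without replicate 2 or 3 of the group with both cytokines (adjusted p = 0.0935 and 0.0879), and with only the groups compared (0.0694). Cd79a had 128, 56.8 and 35 TPM and was not called (-1.20 ± 0.53, adjusted p = 0.418). With the replicate number as a block, here too with libraries that deviated together, Cd79a was called (adjusted p = 0.0344).

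The others were not called at 6 h. Cd22 was at 48.3, 19.5 and 19 TPM and Lyn at 5.85, 9.48 and 8.26 TPM, with differences of 0.81 ± 0.48 and -0.74 ± 0.36. Syk was at 39.4, 31.6 and 30 TPM (0.16 ± 0.34), Blnk at 88.9, 98.4 and 96.7 TPM (-0.19 ± 0.31) and Btk at 1.2, 0.874 and 1.89 TPM (0.59 ± 0.46).

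At 24 h Syk had 60.2, 66.2 and 61.5 TPM with both cytokines, above the 7.51 to 30.9 TPM with IL-4 alone, and rose 4.09-fold (2.03 ± 0.34, adjusted p = 0.000218). Lyn had 11.2, 17.6 and 12.9 TPM, also above every library with IL-4 alone (1.69 ± 0.36, adjusted p = 0.00219). Both nevertheless had lower means than with anti-CD40 alone, of 62.6 against 171 TPM for Syk and 13.9 against 18.1 TPM for Lyn, differences that were not tested.

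Blnk had 126, 126 and 120.0 TPM, nearly equal in the 3 libraries, and rose (1.11 ± 0.31, adjusted p = 0.0137). That rise rested on replicates 2 and 3 of the IL-4 group: it was 0.98 (adjusted p = 0.0786) without replicate 2 and 0.69 (adjusted p = 0.147) without replicate 3. After median-of-ratios rescaling it was 0.54 (adjusted p = 0.0368). The rise of Lyn was 1.12 without replicate 3, and still called. With only the groups compared, both calls were lost (adjusted p = 0.163 for Blnk and 0.114 for Lyn).

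Cd22 had 324, 385 and 405 TPM with both cytokines at 24 h, against 45.8 to 154 TPM with IL-4 alone, and rose 4.91-fold (2.30 ± 0.48, adjusted p = 0.00189). Cd72 was not called: its level was 49.7, 37.4 and 46.3 TPM, overlapping the range with IL-4 alone (-0.38 ± 0.29, 95% interval -0.99 to 0.23). The 2 inhibitory coreceptors were thus at 371 and 44.5 TPM in this group, against 429.7 and 258 TPM with IL-21 and no IL-4.

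Ms4a1 had 317, 308 and 355 TPM and was the 1 gene that fell (-1.20 ± 0.19, adjusted p = 0.000139). The signalling chains were not called: Cd79a had 436, 379.9 and 374 TPM (0.39 ± 0.53, 95% interval -0.72 to 1.50) and Cd79b had 564, 515 and 548 TPM (-0.11 ± 0.24, 95% interval -0.60 to 0.38). Btk had 2.54, 7.15 and 1.17 TPM (-0.09 ± 0.46). After median-of-ratios rescaling, Cd79b (-0.69) and Cd72 (-0.95) were also called lower.

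The median difference of the 9 genes in this comparison was 0.39 at 24 h, against 0.38 over all genes, and -0.74 at 6 h, against 0.06. Without both libraries of low mitochondrial share the count at 24 h was again 5. Macrophage and monocyte markers summed to 2.92 to 3.55 TPM with both cytokines, against 5.6 to 10.5 TPM with IL-4, and their part in the differences of Lyn and Syk was not tested.

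**Figure D3:**
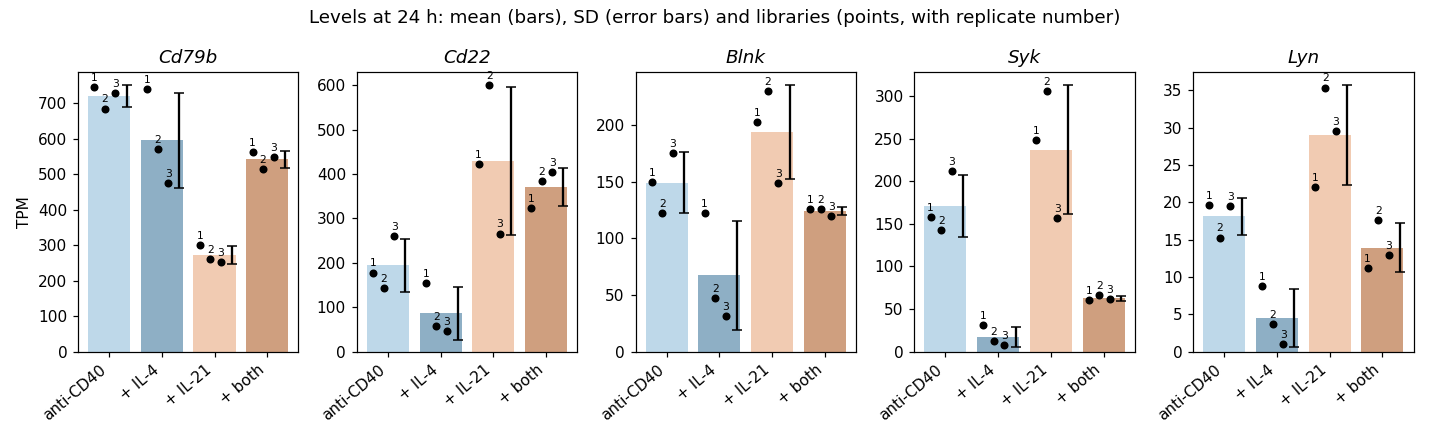
TPM of 5 genes at 24 h in the 4 stimulated groups: bars are means from 0, error bars are SD of 3 libraries, and points carry the replicate number. Replicate 1 is the highest of the IL-4 group in all 5 panels, and Cd79b is lowest with IL-21 and no IL-4. The means of Syk and Lyn with both cytokines lie between those of the IL-4 group and anti-CD40 alone. The libraries of Lyn with both cytokines overlap those of anti-CD40 alone.

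Whether IL-4 changed the IL-21 response was tested as an interaction. At 6 h, 0 of the 9 genes were called in limma, against 0.412% of all genes (0.148% higher and 0.263% lower), and 1, Cd79b, had an unadjusted p below 0.05. Its interaction was 1.03 ± 0.33 (adjusted p = 0.285). With the replicate number as a block, and same-numbered libraries deviating together in each of the 3 cytokine comparisons at 6 h, Cd79b was called (adjusted p = 0.0416). At 24 h only Cd79b was called, 1 of 9 against 5.8% of all genes (3.33% higher and 2.48% lower), and 5 of the 9 had an unadjusted p below 0.05. IL-21 changed it by -1.41 without IL-4 and -0.11 with it, an interaction of 1.29 ± 0.33, adjusted p = 0.0218. Leaving out replicate 1 of anti-CD40 alone, 2 or 3 of the IL-4 group, 3 of the IL-21 group or 1 of the group with both took the adjusted p of Cd79b to between 0.0507 and 0.0642, and median-of-ratios rescaling gave 0.99 (adjusted p = 0.07). For Syk, called with IL-21 in the presence of IL-4 and not without it, the test of that difference missed the threshold (1.59 ± 0.49, adjusted p = 0.056). It was passed in 7 of 36 alternatives. Among them were the fits without replicate 1 of the IL-4 group (2.11, adjusted p = 0.00122), replicate 2 of the IL-21 group or naive replicate 1. Median-of-ratios rescaling (1.32, adjusted p = 0.00541) and removal of mitochondrial, ribosomal protein and pseudogene transcripts (0.0127) gave the call as well. For Lyn (1.06 ± 0.51, adjusted p = 0.247), Blnk (0.74 ± 0.43, adjusted p = 0.352) and Cd22 (1.18 ± 0.68, adjusted p = 0.34) it was not called. Without both libraries of low mitochondrial share, Cd79a, Cd79b, Cd22, Blnk, Syk and Lyn were called, so this count turned on those libraries. Calls were also more in the wider pathway lists described below, from 5 to 31 of 61 genes higher. The share of all genes called in that fit is not given here.

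Whether the IL-21 response changed between 6 h and 24 h was tested in the same way. With anti-CD40 alone, Cd72 was the 1 gene called, against 4.44% of all genes (3.1% higher and 1.34% lower). Its IL-21 difference went from -1.98 to -0.22, a change of 1.76 ± 0.42, adjusted p = 0.0146. That call was lost without replicate 1 of anti-CD40 alone at 6 h, replicate 2 of it at 24 h or replicate 2 of the 24 h IL-21 group (adjusted p = 0.0548, 0.0506 and 0.0516). With IL-4 present, Lyn and Syk were called, 2 of 9 against 4.24% of all genes (3.66% higher and 0.576% lower). The IL-21 difference of Lyn went from -0.74 to 1.69, a change of 2.44 ± 0.51, adjusted p = 0.00637, and that of Syk from 0.16 to 2.03, a change of 1.87 ± 0.49, adjusted p = 0.0282. The call of Syk was lost without replicate 1 or 2 of the IL-4 group at 6 h, 2 or 3 of it at 24 h, 2 or 3 of the group with both cytokines at 6 h, or any of the latter at 24 h (adjusted p from 0.0525 to 0.102). With only the groups compared, neither Lyn (adjusted p = 0.0799) nor Syk (0.091) was called, and without a filter Syk was not (0.0666). Without replicate 1 of the 24 h IL-4 group, 7 genes were called, with Btk and Ms4a1 not among them. How many of all genes were then called is not given here. For Ms4a1 no such change was called with anti-CD40 alone (0.22 ± 0.28, 95% interval -0.35 to 0.79) or with IL-4 (0.77 ± 0.28, 95% interval 0.20 to 1.34).

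The 2 signalling chains, whose proteins form a heterodimer, had an RNA ratio that ranged widely between groups. Because TPM is scaled for length, Cd79a can be divided by Cd79b within each library. The ratio was 1.12 ± 0.409 (SD, n = 3) in naive cells. With anti-CD40 alone it was 0.664 ± 0.185 at 6 h and 1.62 ± 0.169 at 24 h. With IL-4 it was 0.188 ± 0.074 at 6 h and 0.557 ± 0.282 at 24 h, and with both cytokines 0.17 ± 0.077 and 0.732 ± 0.0459. With IL-21 and no IL-4 it was 0.508 ± 0.221 at 6 h. At 24 h with IL-21 it was 1.63 ± 0.277, with every library of both chains below those of anti-CD40 alone. Replicate 1 had the highest ratio in 7 of the 9 groups, and the ratios were not tested.

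The ratio of Cd22 to Cd79b, an inhibitory coreceptor against a signalling chain, ranged more widely. It was 0.144 ± 0.08 in naive cells and 0.0135 ± 0.00624 after 6 h of anti-CD40. It was 1.58 ± 0.637 with IL-21 at 24 h and 0.687 ± 0.0979 with both cytokines, against 0.268 ± 0.0783 with anti-CD40 alone. All 3 libraries with IL-21 at 24 h, with or without IL-4, exceeded every library of the other 7 groups. For Cd72 the same ratio was 0.954 ± 0.36 with IL-21 and 0.0817 ± 0.00811 with both cytokines at 24 h. With anti-CD40 alone at 24 h it was 0.405 ± 0.0702, and with IL-4 0.1 ± 0.024.

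Ordered by group mean, the genes differed in how far and where they ranged. Cd22 spanned 51.4-fold between its lowest group, anti-CD40 alone at 6 h, and its highest, IL-21 at 24 h. Cd72 spanned 24.8-fold, Btk 24.7-fold, Cd79a 16-fold, Syk 13.9-fold and Lyn 13-fold. Ms4a1 spanned 11.3-fold, Cd79b 6.44-fold and Blnk only 2.88-fold. The order also shows where neighbours could not be separated. For Cd79a each group overlapped the next one down, from anti-CD40 alone at 24 h and naive cells to both cytokines at 6 h. For Ms4a1 the order broke in 2 places, below the 3 groups led by anti-CD40 alone at 24 h, and between IL-21 at 24 h and both 6 h groups with IL-21. Cd79b broke 3 times, separating both cytokines at 24 h, both at 6 h, IL-21 at 24 h and IL-21 at 6 h from one another. Lyn in naive cells stood above every other group, and its order also broke between IL-21 at 24 h and anti-CD40 alone at 6 h, and between IL-4 and both cytokines at 6 h. Cd72 broke below naive cells, the third group of its order, and again around its 6 h group with IL-21. Syk broke below anti-CD40 alone at 6 h and below IL-21 at 6 h, and Btk below IL-21 at 24 h and below IL-4 at 24 h. Cd22 broke once, between both cytokines and anti-CD40 alone at 24 h, and Blnk once, between IL-4 and both cytokines at 6 h, by 98.8 against 98.4 TPM.

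Across the 9 group means of log2(TPM + 1), Cd79a was most like Cd72 (Pearson r = 0.915) and Ms4a1 (r = 0.863), Blnk was like Syk (r = 0.809), and Syk like Lyn (r = 0.798). Cd79b had r = 0.79 with Ms4a1 and r = -0.0939 with Syk. The points share libraries and scaling, n is 9 groups, and no test was made. Among 6806 protein-coding genes with a mean of at least 5 TPM that are not in the set, the closest to Cd22 were Sorl1 (r = 0.991) and Ccdc134 (r = 0.986), and to Cd79a Haao (r = 0.987) and H3f3a (r = 0.985). Cd79b had Cnr2 (r = 0.925) and Tmsb15l (r = 0.882), the lowest closest matches of the 9. Cd72 had Jmjd7 (r = 0.966) and Entpd5 (r = 0.964), and Ms4a1 had Sh3bp5 (r = 0.978) and Ifi47 (r = 0.97). Blnk had Pqbp1 (r = 0.976) and Limk2 (r = 0.964), and Syk had Pigc and Susd6 (both r = 0.982). Lyn had Lamtor2 (r = 0.984) and Rnf41 (r = 0.966), and Btk had Zfp426 (r = 0.952) and Copg2 (r = 0.944).

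The wider pathway was read from 6 lists of other receptor-signalling genes, of which 61 were tested. They cover activating coreceptor genes, other proximal kinases, adaptors and lipid enzymes, inhibitory receptors, phosphatases and negative regulators, and genes downstream of PLCG2. With anti-CD40 at 6 h, 1 of the 61 rose and 31 fell in limma, and with 24 h against 6 h 34 rose and 0 fell (41 and 0 at an unadjusted p below 0.05). The 6 h group serves in both comparisons, so these opposite signs are not independent. At 24 h against naive, 8 rose and 11 fell, or 18 and 11 without the 2 libraries of low mitochondrial share and 6 and 19 after median-of-ratios rescaling. The shares of all genes called given above belong to the fit of all libraries without rescaling. After median-of-ratios rescaling, 12087 genes were tested. Called were 3608 (1620 higher) for anti-CD40 against naive at 24 h. For IL-21 it was 1887 (955 higher) at 6 h and 2836 (1556 higher) at 24 h. With IL-4 at 24 h it was 4287 (2314 higher). For IL-21 on top of IL-4 it was 546 (216 higher) at 6 h and 2603 (1206 higher) at 24 h. For fits that leave libraries out, such shares are not given here.

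IL-21 with anti-CD40 raised 9 and lowered 8 of the 61 at 6 h, and raised 16 and lowered 6 at 24 h. After median-of-ratios rescaling the counts were 8 higher and 14 lower at 6 h, and 17 higher and 16 lower at 24 h. Leaving out replicate 2 of either 6 h group gave 5 higher at 6 h. Leaving out replicate 1 or 3 of the group with anti-CD40 alone gave 3 lower at 24 h, and leaving out replicate 1 of the IL-4 group gave 10. IL-4 with anti-CD40 lowered 9 and raised 0 at 6 h (16 and 4 at an unadjusted p below 0.05), and lowered 44 and raised 1 at 24 h. With IL-4 present, IL-21 raised 4 and lowered 2 at 6 h (4 and 10 after rescaling), and raised 35 and lowered 1 at 24 h. The median difference of the 61 was -1.23 with IL-4 at 24 h and 0.98 with IL-21 on top of it, against -0.31 and 0.38 over all genes. After median-of-ratios rescaling these counts were 38 lower and 3 higher, and 24 higher and 3 lower. Without replicate 3 of the 24 h IL-4 group, 32 were lower with IL-4 and 22 higher with IL-21 on top, and without its replicate 1 the latter count was 43. The IL-4 group at 24 h serves in both comparisons, so their opposite signs are not independent. With IL-4 at 24 h the lists fell together: 10 of 12 genes downstream of PLCG2, 10 of 14 phosphatases and negative regulators, 8 of 10 inhibitory receptors, 10 of 16 adaptors and lipid enzymes, 4 of 5 proximal kinases and 2 of 4 coreceptor genes.

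Single genes of these lists show what moved most. Cr2, a complement receptor of B cells, had means of 326 TPM in naive cells and 26.9 TPM with anti-CD40 at 6 h, where it fell most of the 61 (-3.55 ± 0.31, adjusted p = 9.03e-09). It was also the largest fall with IL-21, at 6 h (-2.46 ± 0.31) and 24 h (-2.52 ± 0.31), with IL-21 and IL-4 at both times (-2.26 ± 0.31 and -1.23 ± 0.31), and with IL-4 at 24 h (-4.25 ± 0.31, adjusted p = 1.56e-09).

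Ifitm1, a small interferon-inducible membrane protein, was the largest rise with IL-21 at 24 h, from a mean of 0.0468 to 26.6 TPM (4.68 ± 0.24, adjusted p = 3.22e-12). Its IL-21 response was smaller with IL-4, an interaction of -2.58 ± 0.34, adjusted p = 6.02e-05. Fgr, a Src-family kinase like LYN, was the largest rise with IL-21 at 6 h (2.26 ± 0.53, adjusted p = 0.00624) and with IL-21 and IL-4 at 24 h (2.74 ± 0.53, adjusted p = 0.000981). Themis2, an adaptor, was the largest rise with IL-21 and IL-4 at 6 h (2.12 ± 0.33, adjusted p = 0.000238), and Fcrl1, an Fc receptor-like molecule of B cells, the largest fall with IL-4 at 6 h (-2.71 ± 0.23, adjusted p = 2.8e-08).

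Against naive cells the largest rises were Fyn, another Src-family kinase, at 6 h (0.87 ± 0.32, adjusted p = 0.0464) and Rasgrp3, a Ras activator downstream of phospholipase C, at 24 h (1.85 ± 0.26, adjusted p = 1.41e-05). Bank1, a scaffold that binds LYN, was the largest fall at 24 h (-1.94 ± 0.23, adjusted p = 1.18e-06). Ceacam1, an inhibitory receptor, rose most from 6 h to 24 h of anti-CD40 (2.73 ± 0.29, adjusted p = 5.17e-07). Siglecg, a relative of CD22, had the largest positive interaction at 24 h (2.19 ± 0.61, adjusted p = 0.0341). At 24 h, 5 of the 61 genes had a positive and 2 a negative interaction, or 31 and 2 without both libraries of low mitochondrial share. Without any 1 of the other 11 libraries of the 4 groups the positive count was 2 to 8, and without replicate 1 of the IL-4 group it was 29.

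**Figure D4:**
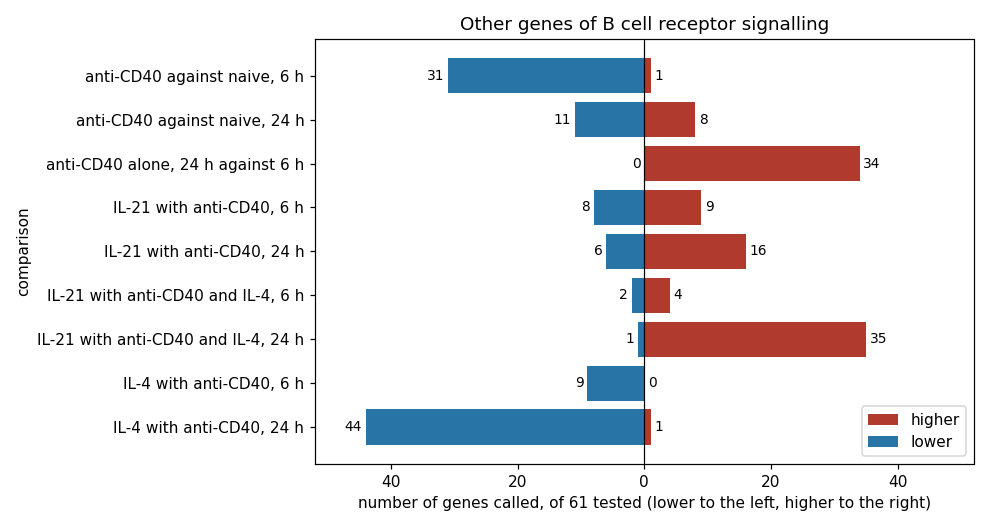
Number of the 61 other receptor-signalling genes called higher (right, red) or lower (left, blue) in 9 comparisons, with each count beside its bar. The longest bars are the 44 lower genes with IL-4 at 24 h and the 35 and 34 higher genes with IL-21 on top of IL-4 at 24 h and from 6 h to 24 h of anti-CD40 alone.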

How the data were processed

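Polyadenylated RNA of 27 libraries was sequenced by the authors. Per the submitters' processing notes, Salmon 1.9.0 and the builds GRCm38 and mm10 were used; the transcript annotation and the use of strand are not given in the sources used here. The deposited table holds gene levels whose unit fits TPM, with sums below 1000000 per library, and no read counts, so depth and counting error are unknown. Gene IDs were named with GENCODE M21 (35254 of 35604 matched), and promoters came from RefSeq.

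TPM values were used as listed, as log2(TPM + 1). With limma 3.58.1 in R 4.3.3, a model with a mean for each group was fitted to the 27 libraries together (variance trend, 18 residual degrees of freedom). It covered the genes that reached 1 TPM in 3 or more libraries. In each of 13 comparisons p values were adjusted by Benjamini-Hochberg over 12147 genes and called below 0.05. Intervals are 95% and unadjusted. On simulated data for 1 comparison (IL-21 with anti-CD40 at 6 h), 57% of 2-fold and 94% of 4-fold changes among 200 changed genes were recovered. There were 10 false calls among the unchanged of 12147 genes. Values were drawn independently around 1 mean per gene, and changed genes had a mean log2(TPM + 1) above 3. No deviation shared between libraries and no shift over all genes was simulated, so these rates may not carry over to the data.

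The 9 genes, the pathway and marker lists, the tests and the alternatives were chosen with earlier results of these data known. Named besides the 9 were the largest called rise and fall among the pathway lists per comparison (whose higher group averaged 5 TPM or more) and the 2 protein-coding genes closest to each of the 9 over the group means; some genes this rule names are not reported here. Of the pathway lists, Sla2 did not pass the filter. Alternatives were median-of-ratios rescaling, a filter at 5 TPM or none, 0.1 as the pseudocount, removal of mitochondrial, ribosomal protein and pseudogene transcripts, no variance trend, the replicate block, only the groups compared, omission of the 2 libraries numbered 1 with low mitochondrial shares, and omission of each library. Pathway counts under 5 of these were added after seeing the data. No label pairs replicates. Same-numbered libraries deviated together (every r over 0.1) in the 6 h comparisons of IL-21 without IL-4 (r from 0.186 to 0.335), of IL-21 given IL-4 (r from 0.183 to 0.377) and of IL-4 itself (r from 0.107 to 0.382); the other comparisons did not meet this.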

Additional observations from a re-analysis of the deposited data

Results flagged for a closer look

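In 4 cases a test of whether the effect of IL-21 on a receptor gene differed between 2 settings passed the threshold. For the interaction, 1 of the 9 genes was called at 24 h, against 5.8% of all genes, and 0 at 6 h, against 0.412%. For the change with time, 1 of 9 was called without IL-4, against 4.44% of all genes. With IL-4 it was 2 of 9, against 4.24%. The effect on Cd79b at 24 h differed between cells with and without IL-4, by 1.29 ± 0.33 (log2(TPM + 1), limma adjusted p = 0.0218). The effect on Cd72 with anti-CD40 alone differed between 24 h and 6 h, by 1.76 ± 0.42 (adjusted p = 0.0146). With IL-4 present, the effect at 24 h differed from that at 6 h by 1.87 ± 0.49 for Syk (adjusted p = 0.0282) and by 2.44 ± 0.51 for Lyn (adjusted p = 0.00637). Each rests on 4 groups of 3 libraries, and no explanation of them was tested. Of 36 alternatives, 30 kept the call of Cd79b, 33 that of Cd72, 25 that of Syk and 35 that of Lyn. With only the groups compared in the limma fit, neither Syk (adjusted p = 0.091) nor Lyn (0.0799) was called.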

How the results depend on the processing

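Of 4209 values of the 9 genes under alternatives, 4054 kept their side of the threshold, 90 newly passed it and 65 no longer passed it. No called value changed sign, but some values that were not called did. Cd79a for anti-CD40 against naive at 24 h, at 0.11, had a lowest value of -0.21. The numbers of genes called moved by more than 1.5 times as follows, with the cause not tested. Shares of all genes called are not given for these alternatives, so the counts cannot be set against them. Without the 2 libraries numbered 1 with low mitochondrial shares, 4 genes were called for anti-CD40 against naive at 24 h (2 with all libraries), 4 for IL-21 with anti-CD40 at 24 h (2), 6 for the interaction at 24 h (1) and 7 for the change with time of the effect of IL-21 where IL-4 was present (2). With only the groups compared in the fit, IL-21 with anti-CD40 at 24 h had 4, IL-21 with IL-4 at 24 h had 3 (5 with all groups), and the change with IL-4 had 0, with fewer samples behind the spread. Without mitochondrial, ribosomal protein and pseudogene transcripts the interaction at 24 h had 2, and without a filter the change with IL-4 had 1, with more genes tested. Leaving out 1 library at a time gave 3 to 7 genes for anti-CD40 against naive at 6 h, 2 to 4 at 24 h, 1 to 3 for IL-4 at 6 h, 0 to 5 for the interaction at 24 h, 0 to 1 for the change without IL-4 and 1 to 7 for that with IL-4.

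With the replicate block, 4 genes were called for IL-21 with anti-CD40 at 24 h, 1 for the interaction at 6 h, 3 for that at 24 h and 4 for the change with IL-4; it ended no call, and apart from the 6 h calls of Cd79a with IL-4, Cd79a with IL-21 on top of it and the Cd79b interaction, its added calls came in comparisons where the libraries did not meet the pairing rule throughout. The block added Cd79a against naive at 6 h (adjusted p = 0.00147), Cd79b against naive at 24 h (0.0265), Syk from 6 h to 24 h (0.0348), and Cd79a (0.00196) and Cd22 (0.0448) with IL-21 at 24 h. Of all libraries, 20 of 27 correlated best with their own number, a hint from the data and not from the design.

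Median-of-ratios rescaling moved the median difference over all genes from 0.25 to 0.02 for anti-CD40 against naive at 24 h, from 0.23 to 0 for IL-21 at 24 h, from 0.38 to -0.01 for IL-21 with IL-4 at 24 h, and from -0.31 to 0 for IL-4 at 24 h. The share of higher genes among all calls went from 70.7% to 44.9%, 73.8% to 54.9%, 90.1% to 46.3% and 26.4% to 54.0% in the same order. It went from 55.5% to 45.0% for anti-CD40 against naive at 6 h, 66.3% to 52.4% for 24 h against 6 h, 61.4% to 50.6% for IL-21 at 6 h, 57.3% to 43.7% for the interaction at 24 h and 86.4% to 59.4% for the change with IL-4. The lack of read depth limits low values such as those of Btk most.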
